A study of Mus musculus with 6 samples.

Results

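The enzymes that break glucose down to pyruvate and lactate, rebuild glucose from pyruvate, and run the pentose phosphate pathway were examined in duodenal epithelium of WT and *Esrra*-/- mice. The members were 38 genes taken by symbol from the table of 22611 genes, and all 38 were found. Of these, 35 had a mean above 1 FPKM over the 6 libraries and entered the test, and *Hk3*, *Eno2* and *Ldhb* did not. FPKM counts the fragments of a gene after division by transcript length and library size, so levels in FPKM can be set side by side between genes.

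The series holds 3 WT and 3 *Esrra*-/- libraries, 1 per mouse, made from epithelium released with EDTA from the proximal small intestine. *Esrra*-/- is a germline deletion of estrogen-related receptor alpha, so the deletion is carried by every tissue and not by the gut alone. The WT mice were littermate controls, both genotypes ate a high-fat diet, and mice of both sexes were used. The line was bred with the Villin-CreERT2 transgene and a floxed *Esrra* allele, and whether the sequenced mice carried them, and their age, is not given in the sources used here. *Esrra* (chromosome 19 of mm9, 6985467 to 6996303) had 49.4, 73.5 and 104 FPKM in WT and 10.4, 9.42 and 8.72 FPKM in *Esrra*-/-, a log2 fold change of -2.92 (standard error, SE, 0.26).

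Glycolysis turns glucose into pyruvate in the cytosol, and lactate dehydrogenase turns pyruvate into lactate. Gluconeogenesis runs the reversible steps backwards and goes round the irreversible ones with enzymes of its own, while the pentose phosphate pathway draws off a glycolytic intermediate to make NADPH and ribose. The absorptive enterocyte takes up sugar from the meal, burns part of it and passes most of it on to the portal blood. ESRRA is a nuclear receptor best known as an activator of genes for mitochondrial respiration, and it binds DNA as a monomer or dimer at an extended half-site that ends in AGGTCA.

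Among the 35 tested members, *Pgam1*, the phosphoglycerate mutase of most tissues, was the member called lower in *Esrra*-/-, and no member was called higher. A call needed an unadjusted p under 0.05 from limma, whose linear model borrows the spread of a gene partly from the other genes, and a log2 fold change beyond 0.58 in size on log2(FPKM + 0.1). Of all 10596 genes tested, 3.28% were called lower and 1.35% higher by that rule (4.63% in either direction), against 1 and 0 of the 35 members. At an unadjusted p under 0.05 whatever the size, *Pgam1* and *Eno1* were lower, where 6.49% of all genes were, and *G6pdx* was higher, where 4.3% of all genes were. No member had an adjusted p under 0.05 by limma with Benjamini-Hochberg adjustment over all genes, as did 0.0378% of all genes, and the smallest adjusted p of a member was 0.356. The members had 18 negative and 17 positive log2 fold changes with a median of -0.04, and all genes tested had a median of 0.03. The plot of log2 fold changes shows intervals that cross 0 for every tested member apart from *Pgam1*, *Eno1* and *G6pdx*.

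**Figure D1:**
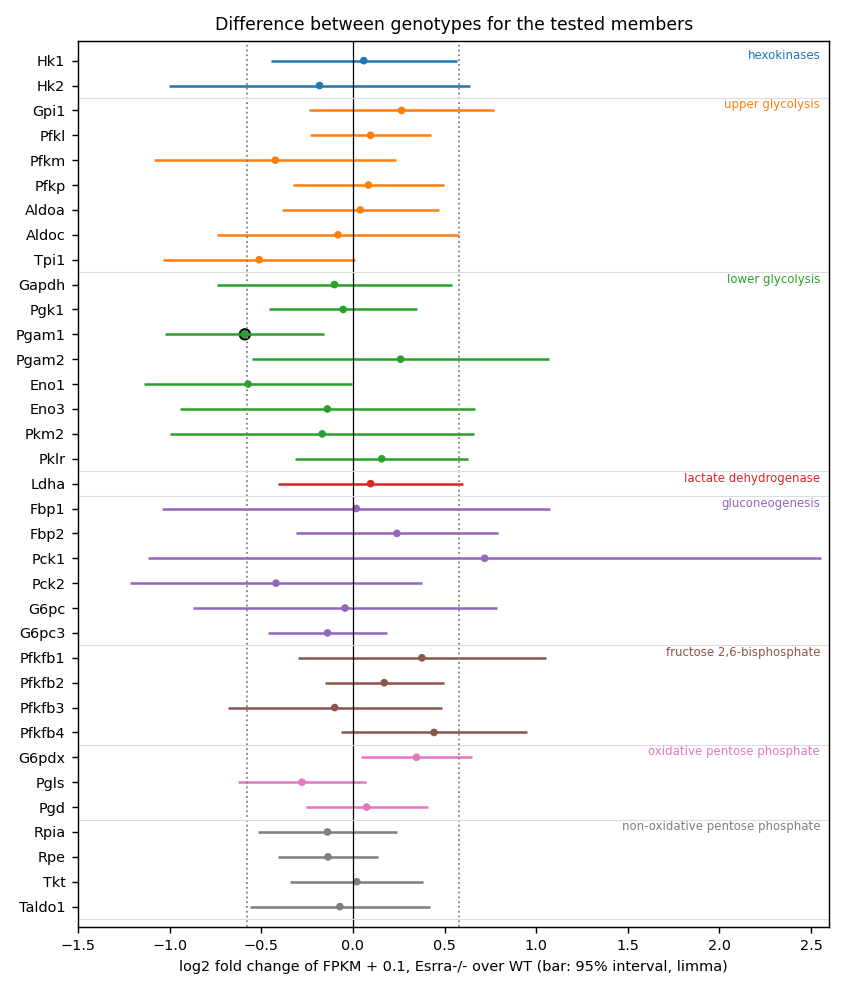
Log2 fold change of each of the 35 tested members, *Esrra*-/- over WT (points), with its 95% interval from limma (bars), grouped by role. Dotted lines mark the size of 0.58 needed for a call, and *Pgam1*, the ringed point at -0.59, is the member that passed it with a p under 0.05, while *Pck1* has the widest interval, from -1.12 to 2.56.

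The promoters of 3 genes of glycolysis, *Tpi1* of the upper and *Pgam1* and *Eno1* of the lower part, are shown because these genes had the most negative log2 fold changes among the abundant glycolytic enzymes, and a further promoter, of *Pfkfb1*, because it holds the same motif. The windows run from 250 bases before to 50 bases after a start site of RefSeq (build GRCm38.p6) and are written 5′ to 3′ on the strand of the gene. Capitals mark AAGGTCA, the core of the ESRR motif, or its reverse complement.
Tpi1, chr6:124814109-124814408, minus strand: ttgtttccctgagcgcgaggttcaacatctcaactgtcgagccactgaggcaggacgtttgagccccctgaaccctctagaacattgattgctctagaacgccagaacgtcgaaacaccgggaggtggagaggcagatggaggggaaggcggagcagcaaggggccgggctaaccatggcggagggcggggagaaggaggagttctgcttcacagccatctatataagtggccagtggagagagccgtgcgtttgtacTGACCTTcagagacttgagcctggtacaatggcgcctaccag
Eno1, chr4:150236458-150236757, plus strand: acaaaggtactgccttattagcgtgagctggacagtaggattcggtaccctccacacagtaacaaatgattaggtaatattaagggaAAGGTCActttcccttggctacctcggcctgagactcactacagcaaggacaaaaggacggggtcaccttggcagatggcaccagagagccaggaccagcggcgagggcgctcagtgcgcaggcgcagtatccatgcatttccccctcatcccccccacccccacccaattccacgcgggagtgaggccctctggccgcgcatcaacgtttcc
Pgam1, chr19:41911621-41911920, plus strand: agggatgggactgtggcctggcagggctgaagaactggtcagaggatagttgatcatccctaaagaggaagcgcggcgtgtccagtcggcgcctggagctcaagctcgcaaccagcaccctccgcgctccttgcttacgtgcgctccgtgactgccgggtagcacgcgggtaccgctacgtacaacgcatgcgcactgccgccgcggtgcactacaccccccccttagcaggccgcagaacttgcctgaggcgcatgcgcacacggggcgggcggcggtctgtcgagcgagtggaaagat
Pfkfb1, chrX:150589666-150589965, plus strand: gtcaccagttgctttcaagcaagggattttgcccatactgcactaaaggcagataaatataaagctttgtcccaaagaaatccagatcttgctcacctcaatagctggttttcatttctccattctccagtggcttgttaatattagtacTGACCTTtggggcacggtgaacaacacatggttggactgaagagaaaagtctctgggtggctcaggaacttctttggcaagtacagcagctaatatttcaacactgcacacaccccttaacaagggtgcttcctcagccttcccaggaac

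Searched on both strands, AAGGTCA was present in 3 of the 57 promoter windows of the members, those of *Tpi1*, *Eno1* and *Pfkfb1*, and in 4.72% of all 32851 windows. All 38 members had at least 1 window, *Pkm2* under its later symbol *Pkm*. In *Tpi1* the match began at base 259 of the window and lay on the strand opposite to the gene. In *Eno1*, which has 3 windows, it began at base 88 of the most upstream window on the strand of the gene, and in *Pfkfb1*, which has 4, at base 151 on the opposite strand. The longer TCAAGGTCA, which contains AAGGTCA, was in none of the 57 windows and in 0.423% of all windows. The window of *Pgam1* held neither string. A match to these letters is a description of the window and not a binding site.

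In FPKM the members spanned from *Gapdh*, which ranked 35 of 22611 genes by mean level, down to *Hk3*, which was listed at 0 in *Esrra*-/- replicates 2 and 3. Together they made up 0.822% to 1.06% of the summed FPKM of a WT library and 0.940% to 1.02% of an *Esrra*-/- library, so their summed share overlapped between the genotypes. By the mean over all 6 libraries the order of the leading enzymes was *Gapdh*, *Ldha*, *Pkm2*, *Eno1* and *Tpi1*, and the last 3 of these overlapped each other in both genotypes. In *Esrra*-/- alone *Gpi1*, at a mean of 386 FPKM, stood above *Eno1* at 350.0 and *Tpi1* at 341 FPKM, also with overlapping values. The plot of levels by mouse shows isoenzymes of the same step far apart in level for most steps, and close together for *Hk1* with *Hk2* and for *G6pc* with *G6pc3*.

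**Figure D2:**
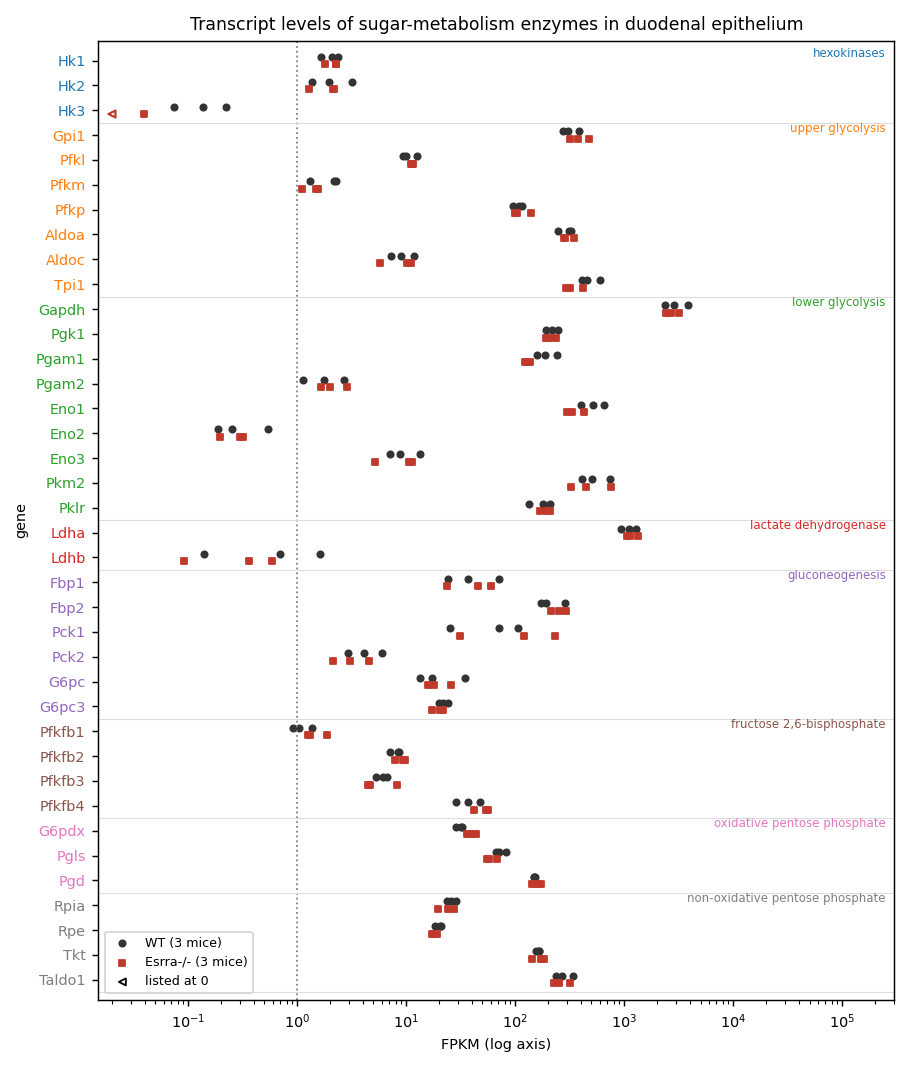
FPKM of all 38 members in each mouse on a log axis, with WT as circles, *Esrra*-/- as squares and values listed at 0 as open triangles at the left edge, and the dotted line at 1 FPKM marks the filter on the mean. *Gapdh* lies highest at 2346 to 3803 FPKM, and *Hk3*, *Eno2* and *Ldhb* are the members whose mean fell to the left of the filter.

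Hexokinases trap glucose in the cell by phosphorylating it. *Hk1*, the broadly expressed form, had 2.11, 2.37 and 1.64 FPKM in WT and 1.79, 2.28 and 2.28 FPKM in *Esrra*-/-. *Hk2*, the form induced by insulin in muscle and fat, had 3.19, 1.97 and 1.38 FPKM in WT and 2.17, 2.12 and 1.27 FPKM in *Esrra*-/-. Both sets of values overlapped, with log2 fold changes of 0.06 (*Hk1*) and -0.18 (*Hk2*). *Hk3*, typical of myeloid cells, had 0.0745, 0.222 and 0.137 FPKM in WT and 0.0394 FPKM in *Esrra*-/- replicate 1. *Hkdc1*, a hexokinase-like gene outside the members, was the most abundant of the family at 67.2 to 82.3 FPKM in WT and 69.0 to 98.5 FPKM in *Esrra*-/-, and its log2 fold change was 0.10 (standard error 0.18).

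*Gpi1*, which interconverts glucose and fructose phosphates, had 303, 275 and 383 FPKM in WT and 373, 316 and 470 FPKM in *Esrra*-/-. Every *Esrra*-/- value lay above WT replicates 1 and 2, but WT replicate 3 lay within the *Esrra*-/- range, with a log2 difference of 0.27 (SE 0.22, adjusted p = 0.689). With 1 library left out that difference ran from 0.11 to 0.40. Phosphofructokinase, the committed step of glycolysis, was carried by *Pfkp*, with 95.9 to 116 FPKM in WT and 100 to 139 FPKM in *Esrra*-/-. *Pfkl*, the liver form, had 9.42 to 12.7 FPKM in WT and 11.1 to 11.6 FPKM in *Esrra*-/-. *Pfkm*, the muscle form, had 2.17, 2.27 and 1.31 FPKM in WT and 1.54, 1.12 and 1.48 FPKM in *Esrra*-/-, a log2 fold change of -0.42 (standard error 0.28). WT replicate 3 was the WT library that overlapped the *Esrra*-/- values of *Pfkm*, and without it the log2 fold change was -0.66 and passed the rule (adjusted p = 0.416). The log2 fold change of *Pfkm* was -0.29 without WT replicate 2 and -0.29 without *Esrra*-/- replicate 2.

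Aldolase splits the hexose into triose phosphates. *Aldoa*, the muscle and general form, had 313, 246 and 322 FPKM in WT and 278, 283 and 342 FPKM in *Esrra*-/-, and *Aldoc*, the brain form, had 7.24 to 11.8 FPKM in WT and 5.77 to 11.1 FPKM in *Esrra*-/-. Their log2 fold changes were 0.04 (*Aldoa*) and -0.08 (*Aldoc*), within the spread between mice.

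*Tpi1* (chromosome 6 of mm9, 124760604 to 124764314) encodes triosephosphate isomerase, which lets both triose products of aldolase go on through glycolysis. It had 453, 408 and 602 FPKM in WT and 319, 290 and 414 FPKM in *Esrra*-/-. *Esrra*-/- replicate 3 lay above WT replicate 2 by a narrow margin, so the groups overlapped there. The means were 488 ± 101 and 341 ± 64.6 FPKM (SD, n = 3 mice each), and the log2 fold change of -0.51 (SE 0.22, 95% interval -1.04 to 0.01, adjusted p = 0.471) missed both parts of the rule. It passed the rule without WT replicate 2 (-0.63) and without *Esrra*-/- replicate 3 (-0.66). It was weaker without WT replicate 3 (-0.35) and without *Esrra*-/- replicate 2 (-0.40).

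*Pgam1* (chromosome 19 of mm9, 41986361 to 41993154) moves the phosphate of phosphoglycerate from one carbon to the next. It had 187, 159 and 242 FPKM in WT and 127, 122 and 136 FPKM in *Esrra*-/-. The highest *Esrra*-/- mouse lay below the lowest WT mouse, which held for 9.14% of all genes tested and for no other tested member. With means of 196 ± 42.0 and 128 ± 7.19 FPKM (SD over 3 mice), *Pgam1* fell by 0.59 on the log2 scale (SE 0.19, 95% interval -1.02 to -0.16, limma adjusted p = 0.356). The size stood just past the 0.58 of the rule. It was -0.43 without WT replicate 3 and -0.55 without *Esrra*-/- replicate 2, so that the call was lost while the unadjusted limma p stayed under 0.05.

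*Eno1* (chromosome 4 of mm9, 149610830 to 149622988), the enolase of most tissues, acts right after *Pgam1*. It had 520, 398 and 658 FPKM in WT and 330, 296 and 423 FPKM in *Esrra*-/-. *Esrra*-/- replicate 3 exceeded WT replicate 2, and the other values were separate. The means were 525 ± 130 and 350 ± 65.8 FPKM (SD, n = 3 mice each), with a log2 difference of -0.57 (SE 0.24, 95% interval -1.14 to -0.0039, adjusted p = 0.458) that stood just short of the size for a call. Without WT replicate 2 it was -0.76 and without *Esrra*-/- replicate 3 it was -0.72, both called, and with any of the other 4 libraries left out its limma p was over 0.05, at -0.40 without WT replicate 3. *Eno3*, the muscle enolase, had 7.10, 8.81 and 13.4 FPKM in WT and 11.3, 5.21 and 10.7 FPKM in *Esrra*-/-, which overlapped throughout. *Eno2*, the neuronal enolase, was below the filter on the mean, at 0.190 to 0.537 FPKM in WT and 0.198 to 0.321 FPKM in *Esrra*-/-.

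**Figure D3:**
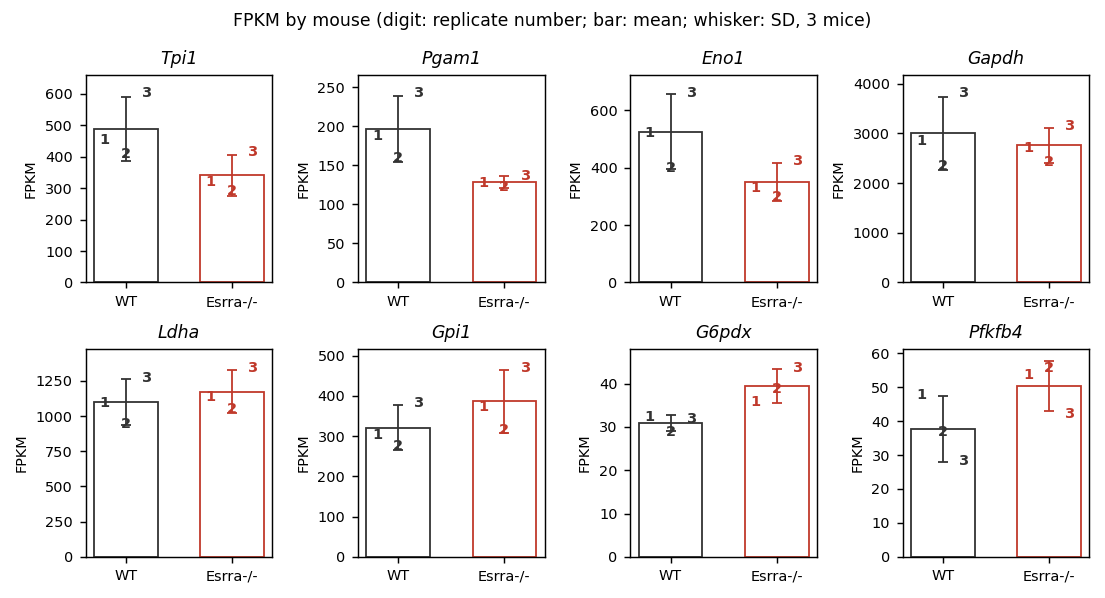
FPKM of 8 members in each mouse, with the replicate number as the symbol, open bars for the mean and whiskers for the SD of 3 mice. *Pgam1* is separate and lower in *Esrra*-/-, *G6pdx* is separate and higher, and *Tpi1* and *Eno1* overlap only where *Esrra*-/- replicate 3 exceeds WT replicate 2.

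The enzymes between and beside these steps had smaller differences. *Gapdh*, which oxidises the triose phosphate, had 2849, 2346 and 3803 FPKM in WT and 2698, 2431 and 3141 FPKM in *Esrra*-/-, a log2 fold change of -0.10 (standard error 0.27) with a 95% interval from -0.74 to 0.54. The sign of *Gapdh* turned to 0.16 under quantile normalization and to 0.01 when each library was scaled to the same sum. *Pgk1*, which makes ATP from the product of *Gapdh*, had 216, 190 and 248 FPKM in WT and 202, 191 and 237 FPKM in *Esrra*-/-. Its interval ran from -0.46 to 0.35, narrow enough to leave out a fall as large as the point estimate of *Tpi1*. *Pgam2*, the muscle mutase, had 1.14 to 2.69 FPKM in WT and 1.66 to 2.87 FPKM in *Esrra*-/-.

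Pyruvate kinase makes the last ATP of the pathway. *Pkm2*, here the older symbol of the gene *Pkm* and not a splice form of it, had 505, 409 and 739 FPKM in WT and 444, 324 and 748 FPKM in *Esrra*-/-. *Pklr*, the form of liver and red cells, had 208, 134 and 179 FPKM in WT and 197, 169 and 208 FPKM in *Esrra*-/-. Their log2 fold changes were -0.17 (*Pkm2*) and 0.16 (*Pklr*), and in both genes the groups overlapped. *Ldha*, the lactate-forming subunit, had 1094, 941 and 1269 FPKM in WT and 1133, 1048 and 1344 FPKM in *Esrra*-/-, a log2 fold change of 0.10 (standard error 0.22). *Ldhb* had 0.14 to 1.60 FPKM in WT and 0.0919 to 0.584 FPKM in *Esrra*-/-, so nearly all lactate dehydrogenase transcript was *Ldha*.

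Of the 6 genes for gluconeogenesis, 0 were called, against 4.63% of all genes, 3 had a negative and 3 a positive log2 fold change. *Fbp2*, the muscle form of fructose bisphosphatase, had 191, 171 and 286 FPKM in WT and 249, 212 and 292 FPKM in *Esrra*-/-, and *Fbp1*, the liver form, had 24.4 to 70.3 FPKM in WT and 23.8 to 59.6 FPKM in *Esrra*-/-. *Pck1*, the cytosolic phosphoenolpyruvate carboxykinase, was the most variable member, with 25.3, 71.1 and 106 FPKM in WT and 119, 31.1 and 230 FPKM in *Esrra*-/-. Mice of both genotypes were found at the low end, while the highest values, 119 and 230 FPKM, came from *Esrra*-/- mice. The log2 fold change of 0.72 had a standard error of 0.78. Without *Esrra*-/- replicate 2 it was 1.52 and passed the rule (adjusted p = 0.391), and without *Esrra*-/- replicate 3 it was 0.08. *Pck2*, the mitochondrial form, had 4.14, 6.05 and 2.91 FPKM in WT and 3.04, 4.56 and 2.14 FPKM in *Esrra*-/-. *G6pc*, the catalytic subunit that frees glucose in liver and gut, had 34.9, 13.5 and 17.4 FPKM in WT and 25.9, 16.0 and 18.1 FPKM in *Esrra*-/-, and the broadly expressed *G6pc3* had 19.8 to 23.9 FPKM in WT and 17.4 to 21.6 FPKM in *Esrra*-/-.

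The Pfkfb enzymes set the level of the sugar bisphosphate that switches phosphofructokinase on and fructose bisphosphatase off. *Pfkfb4* led the family with 47.9, 36.9 and 28.3 FPKM in WT and 53.6, 55.8 and 42.1 FPKM in *Esrra*-/-. Only *Esrra*-/- replicate 3 fell within the WT range, and the log2 fold change was 0.44 (SE 0.22, adjusted p = 0.517). It was 0.63 and passed the rule without WT replicate 1, and was 0.25 without WT replicate 3. *Pfkfb3*, the inducible form, had 6.69, 6.07 and 5.23 FPKM in WT and 4.62, 4.48 and 8.31 FPKM in *Esrra*-/-. *Pfkfb2*, the heart form, had 7.05 to 8.51 FPKM in WT and 7.95 to 9.80 FPKM in *Esrra*-/-, and *Pfkfb1*, the liver form, had 0.923 to 1.38 and 1.25 to 1.89 FPKM, all overlapping.

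*G6pdx* (chromosome X of mm9, 71654822 to 71674533) encodes glucose-6-phosphate dehydrogenase, which commits glucose to the pentose phosphate pathway and makes NADPH. It had 32.2, 28.9 and 31.8 FPKM in WT and 35.8, 38.9 and 43.7 FPKM in *Esrra*-/-. The lowest *Esrra*-/- mouse lay above the highest WT mouse, which held for 8.45% of all genes tested and for no other tested member. The means were 31.0 ± 1.80 and 39.5 ± 3.96 FPKM (SD, n = 3 mice each), with 0.35 between them on the log2 scale (SE 0.13, 95% interval 0.04 to 0.65, adjusted p = 0.411), which is short of the size for a call. The limma p was under 0.05 without WT replicate 3 and without *Esrra*-/- replicate 1, and over 0.05 with any of the other 4 libraries left out, where the log2 fold change ran down to 0.27.

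The later steps of the oxidative branch had their values overlapping between genotypes. *Pgls*, the lactonase, had 66.3, 70.2 and 81.6 FPKM in WT and 57.6, 54.7 and 67.5 FPKM in *Esrra*-/-, so that only *Esrra*-/- replicate 3 reached the WT range, and the log2 fold change was -0.28 (SE 0.15). *Pgd*, which makes the second NADPH, had 152, 149 and 147 FPKM in WT and 142, 158 and 174 FPKM in *Esrra*-/-. In the non-oxidative branch, which shuffles sugar phosphates back to glycolysis, the log2 fold changes ran from -0.14 to 0.02 over *Rpia*, *Rpe*, *Tkt* and *Taldo1*. *Tkt*, the transketolase, had 156, 167 and 166 FPKM in WT and 172, 142 and 185 FPKM in *Esrra*-/-, and *Taldo1*, the transaldolase, had 235, 268 and 338 FPKM in WT and 253, 227 and 320 FPKM in *Esrra*-/-. *Rpia* and *Rpe*, the pentose phosphate isomerase and epimerase, had mean levels of 25.9 and 19.9 FPKM in WT and of 23.7 and 18.1 FPKM in *Esrra*-/-.

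Many members were highest in the same libraries. WT replicate 3 was the highest WT library for 19 of the 35 tested members, *Esrra*-/- replicate 3 was the highest of its genotype for 24, and both held for 16 members, against 42.2%, 43% and 28.1% of all genes tested. With each library scaled to the same sum these counts were 7, 10 and 4 members, against 13.2%, 15.7% and 6.25% of all genes. These were also the libraries with the largest summed FPKM, 999900 and 901170 against 707090 to 818410 in the other 4. They were the ones with a trace of Y-linked transcripts as well, at 0.0487 and 0.222 FPKM summed over *Ddx3y*, *Eif2s3y*, *Kdm5d* and *Uty*, where the others had 27.3 to 46.7 FPKM. With the presence of Y-linked transcripts as a covariate *Pgam1* kept its call (adjusted p = 0.119), and among the 2 WT and 2 *Esrra*-/- libraries that hold them its log2 fold change was -0.47 (adjusted p = 0.347), short of the size for a call. In those 4 libraries *Eno1* stood at -0.54, *Tpi1* at -0.50 and *G6pdx* at 0.29.

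Setting each library against the pathway itself, by dividing it by the median ratio of the 35 members to their own means, left the differences within the pathway. This scale was added after the values were seen, and its divisors ran from 0.909 to 1.11. On it 4 members, *Tpi1*, *Pgam1*, *Eno1* and *Pgls*, were separate and lower in *Esrra*-/-, as were 5.51% of all genes, and *G6pdx* was separate and higher, as were 10.9% of all genes. With each library scaled to the same sum instead, also chosen after the values were seen, the same 4 members were separate and lower, as were 3.29% of all genes, and 6 were separate and higher (*Gpi1*, *Pfkl*, *Ldha*, *Fbp2*, *Pfkfb1* and *G6pdx*), as were 13.8% of all genes. On the scale of the members the level of *Eno1* was 516, 422 and 604 in WT and 342, 326 and 380 in *Esrra*-/-, and that of *Tpi1* was 449, 433 and 553 in WT and 331, 319 and 371 in *Esrra*-/-. The log2 fold changes were -0.56 for *Pgam1*, -0.55 for *Eno1* and -0.48 for *Tpi1*, each with an unadjusted limma p under 0.05 and with adjusted p-values of 0.249, 0.376 and 0.377, so that these 3 were short of the size for a call on this scale. *Pck1* was past that size on it (0.75) with an adjusted p of 0.742, and no member was called, where 246 of the 10596 genes were called lower and 164 higher. The scaled level of *Pgk1*, which acts between *Tpi1* and *Pgam1*, was 202 to 228 in WT and 209 to 213 in *Esrra*-/-.

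**Figure D4:**
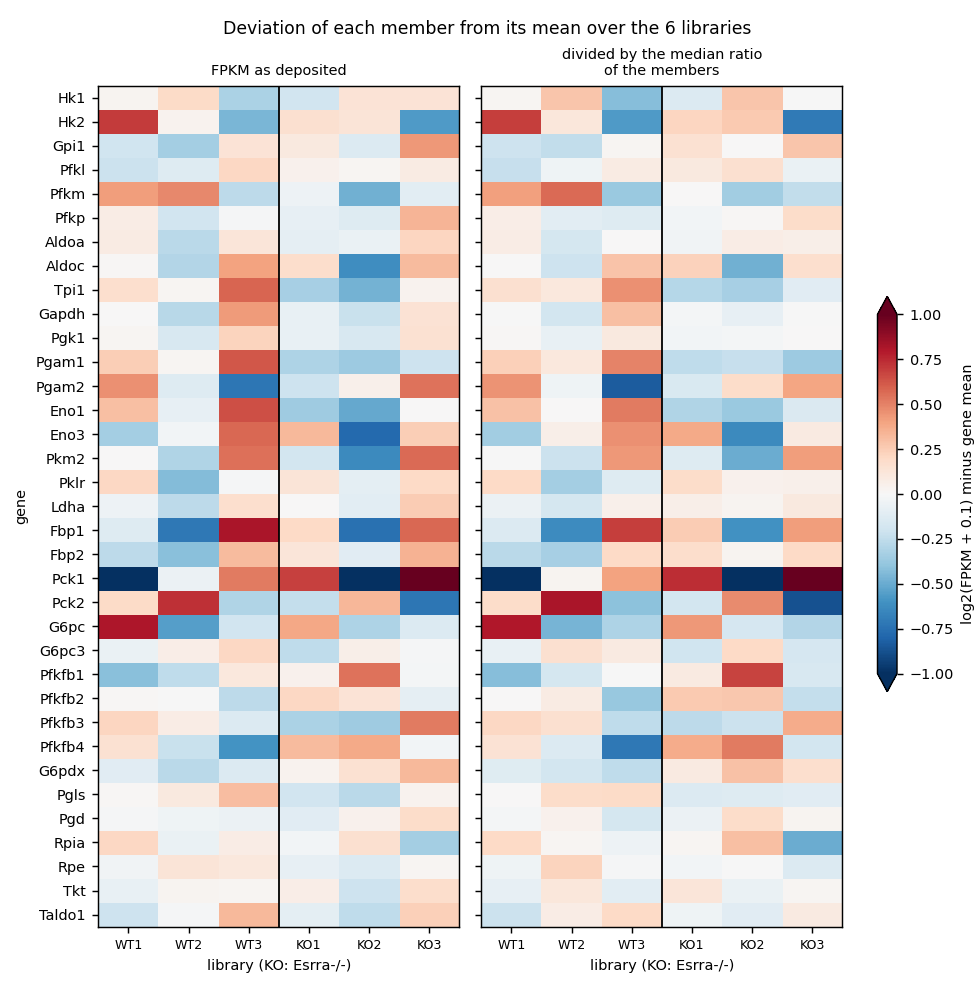
Deviation of each of the 35 tested members (rows) from its own mean over the 6 libraries (columns), on log2(FPKM + 0.1), as deposited (left) and after division by the median ratio of the members (right), with red above and blue below the mean. After the division *Tpi1*, *Pgam1* and *Eno1* are red in WT and blue in *Esrra*-/-, apart from *Eno1* near 0 in WT replicate 2, and *G6pdx* shows the opposite.

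The makeup of each step by isoenzyme was compared as a percentage of the summed FPKM of the step, which does not depend on library scaling. *Pfkp* made up 89.4 ± 1.31% of phosphofructokinase transcript in WT and 89.8 ± 1.34% in *Esrra*-/- (SD, n = 3 mice each, two-sided exact permutation test, p = 0.5). *Pkm2*, taken as a gene and not as a splice form, made up 75.6 ± 4.86% of pyruvate kinase in WT and 71.1 ± 6.47% in *Esrra*-/- (same exact permutation test, p = 0.4). *Pfkfb4* held 70.9 ± 3.70% of its family in WT and 75.3 ± 4.10% in *Esrra*-/- (exact permutation p = 0.2). In each of the 10 steps compared the share of the isoenzyme with the highest mean FPKM over the 6 mice overlapped between genotypes, and exact p-values ranged from 0.2 to 0.7, where 3 mice against 3 cannot give less than 0.1. *Hk3*, a minor form below the filter on low values and listed at 0 in *Esrra*-/- replicates 2 and 3, made up 3.53% of the hexokinases *Hk1* to *Hk3* in WT and 0.328% in *Esrra*-/- (exact permutation p = 0.1), where *Hkdc1* was not part of the sum.

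**Figure D5:**
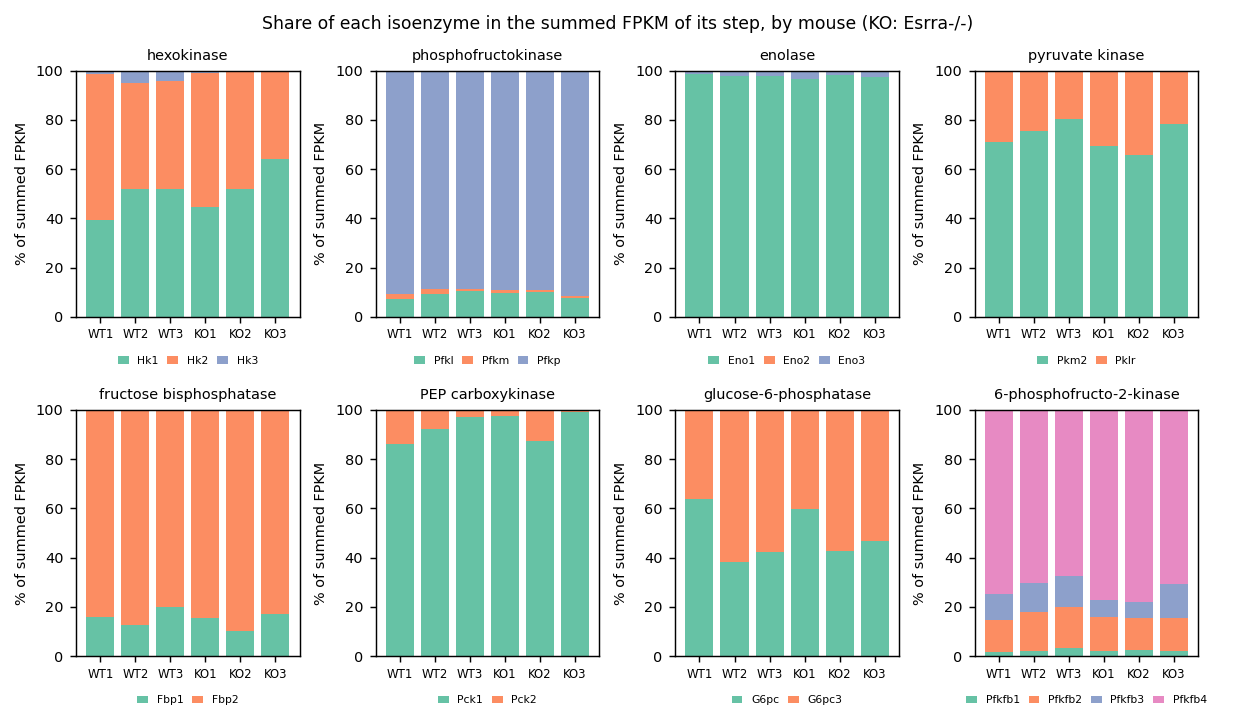
Percentage of the summed FPKM of a step held by each isoenzyme, in stacked bars for each of the 6 mice, for 8 of the 10 steps (KO marks *Esrra*-/-). The same isoenzyme leads a step in every mouse for *Pfkp*, *Eno1*, *Pkm2*, *Fbp2*, *Pck1* and *Pfkfb4*, while *Hk1* with *Hk2* and *G6pc* with *G6pc3* change places between mice.

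A list of 60 further genes of these pathways was set beside the members: transporters, pyruvate entry, shuttles and regulators. Of its 51 tested genes 6 were called lower and none higher, against 3.28% and 1.35% of all genes, and its median log2 fold change was 0.02. *Pdha1* and *Pdhb*, subunits of pyruvate dehydrogenase, had log2 fold changes of -0.76 and -0.65, *Dlat*, the acetyltransferase of the same complex, -0.91, and *Brp44*, a subunit of the mitochondrial pyruvate carrier now named *Mpc2*, -0.72. *Got1* and *Got2*, the cytosolic and mitochondrial aspartate aminotransferases, had -0.65 and -0.61, and the values of *Got1* overlapped between genotypes. The limma adjusted p-values of these 6 called genes ran from 0.151 (*Pdha1*) to 0.445 (*Got1*). Genes with related roles were not called, among them the other pyruvate carrier subunit *Brp44l* (-0.43), the malate dehydrogenases *Mdh1* (-0.44) and *Mdh2* (-0.05), the carrier *Slc25a11* (0.22) and pyruvate carboxylase *Pcx* (0.26), these 5 being named after their values were seen. *Dlat* had 19.0, 16.8 and 21.9 FPKM in WT and 9.89, 9.02 and 11.8 FPKM in *Esrra*-/-, with no overlap. Of the 51 tested genes of the list 6 were separate and lower, as were 9.14% of all genes. Another 3 were separate and higher, as were 8.45% of all genes. None of the sugar transporters that passed the filter was called. *Slc5a1*, the sodium-glucose cotransporter of the brush border, had 345 to 840 FPKM in WT and 207 to 1134 FPKM in *Esrra*-/-, and *Slc2a2*, the basolateral glucose carrier, had 48.2 to 138 FPKM in WT and 38.4 to 183 FPKM in *Esrra*-/-.

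Of the marker lists of cell types, those of crypt and Paneth cells held genes called lower. The red cell list held 1 gene called higher, against 1.35% of all genes, but 2 of its 3 tested markers were negative, with a median of -0.15. Its summed level was 8.80 to 45.0 FPKM in WT and 14.1 to 54.0 FPKM in *Esrra*-/-. The lists of enterocytes, goblet, enteroendocrine, tuft, immune, and mesenchymal and muscle cells held no gene called in either direction, against 4.63% of all genes. Of these, 3 of 4 tuft, 13 of 14 immune and 2 of 9 mesenchymal and muscle markers passed the filter and were tested. The immune markers summed to 1438, 1475 and 335 FPKM in WT and 752, 1440 and 2152.5 FPKM in *Esrra*-/-. Their level thus varied widely between mice of the same genotype. Of 12 enterocyte markers all 12 had a positive log2 fold change, with a median of 0.27 and none called, and their summed level was 40942 to 66073 FPKM in WT and 50638 to 70005 FPKM in *Esrra*-/-. Of 12 crypt markers 11 were negative with a median of -0.64 and 3 were called lower, against 3.28% of all genes. Their summed level was 261 to 390 FPKM in WT and 135 to 295 FPKM in *Esrra*-/-. The Paneth cell list held 7 markers, of which 6 were found and tested. Of these 6 markers 5 were called lower, against 3.28% of all genes. They had a summed level of 11362 to 23170 FPKM in WT and 2219 to 9789 FPKM in *Esrra*-/-. The part of these cells in the values of *Pgam1*, *Eno1*, *Tpi1* and *G6pdx* was not tested, and in bulk RNA fewer cells of a type and less RNA per cell cannot be told apart. Markers of mesenchyme and muscle summed to 5.23 to 8.91 FPKM, and 6 of 9 pancreatic acinar markers, *Prss2* among them, were listed at 0 in every library.

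Some members share sequence with other rows of the table, and how the fragments were divided is uncertain there. *Gapdh* matched 28 other genes of the table over at least 200 bases at 95% identity or more, of which *Gm5559* had a mean of 79.3 FPKM and *Gm12033* 19.7 FPKM, against 2878 FPKM for *Gapdh*. *Eno1* matched *Gm5506*, at a mean of 0.117 FPKM, and *Pgam1* matched *Gm8910*, at 0.0635 FPKM. *Pklr* shares 711 bases with *Hcn3* and *Pfkp* 372 bases with *Pitrm1*.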

How the data were processed

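RNA-seq of 3 WT and 3 *Esrra*-/- libraries was used, 1 per mouse. As the paper's methods and the submitters' processing notes state, the authors checked reads with FastQC 0.11.3, quantified them with kallisto (given as 2.1.0) against mm9 and computed the deposited FPKM with DESeq2 (given as 2.2.1). The annotation is not given in the sources used here, and the depth of the libraries is not known from FPKM, so precision is given by the spread between mice. A second file, the authors' own comparison (mean count, fold change and p), was not used.

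From the FPKM, log2(FPKM + 0.1) was tested for the 10596 genes with a mean above 1 with limma 3.58.1 in R 4.3.3 (mean-variance trend, no covariate, Benjamini-Hochberg adjustment over all genes), which was first run on simulated data. Fold changes on this scale are understated for low genes. Isoenzyme shares were compared with two-sided exact permutation tests (SciPy 1.17.1). Gene positions are from GENCODE M1 on mm9, shared sequence from BLAST 2.17.0, and promoters from RefSeq on GRCm38.p6. Every member in the table is named, and of the further pathway genes those called, with *Hkdc1*, *Slc5a1*, *Slc2a2*, *Brp44l*, *Mdh1*, *Mdh2*, *Slc25a11* and *Pcx* added after their values were seen. The isoenzyme shares of 1 step are not reported here. The members and lists were chosen with earlier results of these data known. Alternatives tried were a pseudocount of 1, 2 other filters, 4 other scalings, no trend, a replicate block, a Y-linked covariate, each library left out, libraries with Y-linked transcripts alone, and an adjusted p. Same-numbered libraries correlated at 0.012, 0.263 and 0.376 in their deviations from the genotype means, so the numbers were not taken as pairs.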

Additional observations from a re-analysis of the deposited data

How the results depend on the processing

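With 3 mice a genotype and no counts, the log2 fold changes of the members have standard errors of 0.12 to 0.78, and every call rests on an unadjusted p. Of all genes 348 were called lower and 143 higher, with 1 and 0 members. With an adjusted p under 0.05 there were 2 lower and 2 higher genes and 0 members. Without a filter, among 22611 genes, there were 399 genes lower and 178 higher and 2 members lower, *Hk3* being added. With each library scaled to the same sum, an alternative chosen after seeing the data, which moved the median of all genes from 0.03 to 0.14, there were 134 genes lower and 270 higher and 0 members. On the members' own median-ratio scale there were 246 genes lower and 164 higher and 0 members. Leaving out 1 library gave 252 to 537 genes lower, 146 to 214 higher, 0 to 3 members lower and 0 to 1 higher. The members were *Pgam1*, *Eno1* and *Tpi1* lower without WT replicate 2 or *Esrra*-/- replicate 3, *Pfkm* lower and not *Pgam1* without WT replicate 3, *Pfkfb4* higher without WT replicate 1, and *Pck1* higher with none lower without *Esrra*-/- replicate 2. In the libraries with Y-linked transcripts *Pfkm* was called (-0.71) and *Pgam1* was not (-0.47). The call of *Pgam1* was also lost at the same sum (-0.47). With the replicate number as a block, 441 genes were called lower and 192 higher, with 1 and 0 members. Only WT replicates 2 and 3 correlated best with the *Esrra*-/- library of their own number. Adjusted p-values over the alternatives ran from 0.106 to 0.761 for *Pgam1*, 0.0875 to 0.811 for *Eno1*, 0.0869 to 0.814 for *Tpi1* and 0.163 to 0.775 for *G6pdx*.

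Of the 35 tested members 17 kept the sign of their log2 fold change under every alternative that tested them. Among them *Pfkfb1* was not tested under the filter of FPKM above 1 in all 6 libraries. Signs turned under quantile normalization for *Gapdh* (0.16), *Fbp1* (-0.038) and *Tkt* (-0.0048), and in the libraries with Y-linked transcripts for *Hk1* (-0.14), *Pfkp* (-0.048), *Pgam2* (-0.24), *Pgd* (-0.0086) and *Tkt* (-0.047). At the same sum they turned for *Aldoc* (0.033), *Gapdh* (0.015), *Pgk1* (0.062), *G6pc* (0.072), *Pfkfb3* (0.013) and *Taldo1* (0.044). Leaving out 1 library, the range crossed 0 for *Aldoa* (-0.083 to 0.11), *Aldoc* (-0.26 to 0.21), *Eno3* (-0.34 to 0.21), *Fbp1* (-0.33 to 0.43), *G6pc* (-0.33 to 0.35), *Gapdh* (-0.26 to 0.084), *Hk1* (-0.083 to 0.17), *Hk2* (-0.46 to 0.12), *Ldha* (-0.012 to 0.20), *Pfkfb3* (-0.38 to 0.054), *Pfkp* (-0.064 to 0.17), *Pgam2* (-0.034 to 0.55), *Pgk1* (-0.15 to 0.044), *Pklr* (-0.019 to 0.30), *Pkm2* (-0.49 to 0.11), *Taldo1* (-0.21 to 0.072) and *Tkt* (-0.061 to 0.13). Differences in share, in percentage points, crossed 0 for *Pfkp* (-0.34 to 1.19), *Fbp2* (-0.16 to 3.70), *Pck1* (-0.14 to 6.48) and *G6pc* (-3.39 to 9.54). Those of *Pkm2* (-8.06 to -1.79) and *Pfkfb4* (2.76 to 6.82) kept their sign but varied in size. The cause of these changes was not tested.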
